A study of Mus musculus with 10 samples.

Results

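Ly49 receptors are lectin-like proteins on the surface of mouse natural killer (NK) cells that recognise MHC class I molecules and related ligands. Most members inhibit the cell, through a motif in the cytoplasmic tail that recruits the phosphatase SHP-1, while Ly49H (Klra8) activates it through the adaptor DAP12 (Tyrobp) after binding a protein of mouse cytomegalovirus. Each NK cell expresses only some members, so a population carries a mixture of them. The genes examined were Klra1 (Ly49A), Klra2 (Ly49B), Klra3 (Ly49C), Klra5 (Ly49E), Klra6 (Ly49F), Klra7 (Ly49G), Klra8 (Ly49H) and Klra9 (Ly49I), all 8 of which lie on mouse chromosome 6. They were followed through the probe sets, the groups of short probes that together measure a transcript, whose platform gene symbol is a member, alone or among several symbols. This gave 8 probe sets for 7 of the 8 genes, out of 45037 probe sets for 19324 gene symbols. Klra6 had no probe set assigned to it in this annotation. Klra5, Klra2, Klra8 and Klra1 had 1 probe set each of their own and Klra7 had 2. The other two were shared, the first between Klra9 and Klra3 and the second between Klra22 and Klra1, and the RefSeq gene table lists Klra22 as another name of Klra1. In Affymetrix naming, the ending _x_at marks a set with probes that may also bind other transcripts. This applies to 5 of the 8, so transcripts of closely related Ly49 genes, including those without a probe set, cannot be told apart in them.

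Transcripts were measured on Affymetrix MOE430_2 arrays with NK cells from wild-type C57Bl/6 mice. The IL-15 NK group held 3 arrays of splenic NK cells kept for 24 h with recombinant mouse IL-15 at 100 ng/mL, a cytokine that sustains and activates NK cells. The resting NK group held 3 arrays of such cells lysed straight after sorting, and NK cells of both groups had been sorted to over 99% as NK1.1-positive and CD3-negative, a gate that uses no Ly49 molecule. The splenocyte group held 4 arrays of unsorted resting spleen cells from 2 biological samples with 2 chips each, and what pairs the chips is not given in the sources used here. NK cells cultured without IL-15 were not analysed here, so IL-15 and 24 h of culture cannot be told apart. NK RNA was amplified in 2 cycles and splenocyte RNA in 1 cycle, which cannot be told apart from cell type.

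The RefSeq sequences upstream of the Ly49 genes (build GRCm38.p6, minus strand) show how close some of the genes are to each other before their starts. They are not part of the transcripts and say nothing of the probes. Each stretch below is 60 bases, ends before the annotated transcription start and is aligned on TTTCCTC, in capitals.
Klra9, chr6:130193144-130193203: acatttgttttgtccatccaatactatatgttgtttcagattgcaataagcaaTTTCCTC
Klra3, chr6:130337639-130337698: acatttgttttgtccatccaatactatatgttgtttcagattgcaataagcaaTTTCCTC
Klra5, chr6:129913308-129913367: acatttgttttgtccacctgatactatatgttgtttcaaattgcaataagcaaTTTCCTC
Klra8, chr6:130129972-130130031: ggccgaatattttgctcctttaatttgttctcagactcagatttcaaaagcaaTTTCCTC
Klra7, chr6:130233405-130233464: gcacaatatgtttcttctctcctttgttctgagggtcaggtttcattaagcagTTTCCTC
Klra2, chr6:131247427-131247486: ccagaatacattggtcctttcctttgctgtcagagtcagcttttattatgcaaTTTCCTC
Klra9 and Klra3 were identical over all 60 bases, and Klra5 matched them at 56 of 60. Klra8 matched Klra9 at 25 and Klra7 at 28 of 60 bases, Klra2 matched Klra7 at 44, and all these counts are without gaps. All 8 genes had windows of 300 bases around their starts in the table. TTTCCTC lay on either strand in windows of 7 of them, all but Klra1, and in 9% of 32851 windows of all genes. TTGCAATA, which overlaps no TTTCCTC in the stretches above, lay in windows of 4 genes (Klra3, Klra5, Klra6 and Klra9) and in 0.6% of all windows. TGTGGT, the core bound by RUNX factors, lay in a window of Klra1 alone among the 8 genes and in 16.8% of all windows. These motifs were chosen after the sequences were seen.

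The authors' signals were on a linear scale, with the mean of each array after trimming 2% at each end close to 1500 units. Signals under a floor of 179.6 units were raised to it before log2 was taken, and testing required signals over it on 3 or more of the arrays in a comparison. Differences were tested with limma over every probe set tested, with a threshold of 0.05 for the Benjamini-Hochberg adjusted p. Signals above the floor made up 51.2% to 56.5% of those on IL-15 NK arrays, 57.8% to 61.8% on resting NK arrays and 61.3% to 62.5% on splenocyte arrays. All 14 NK cell markers examined exceeded the floor on all 10 arrays, and the labelled NK cells had summed marker signals of 568849 to 788262 units, against 62034 to 80439 units in splenocytes. Markers of other cells were not absent from resting NK arrays. The median of 11 B cell markers, as a share of the splenocyte level, was 0.205% to 0.377% in IL-15 NK and 11.3%, 8.30% and 0.467% in resting NK replicates 1, 2 and 3. For 12 macrophage markers that share was 0.354% to 0.949% with IL-15 and 3.66% to 5.83% at rest. For 10 T cell markers it was 1.88% to 3.19% with IL-15 and 2.13% to 6.57% at rest. The ratio of 3-prime to 5-prime signal of the Gapdh control, a sign of RNA or labelling quality, was 2.90 to 3.81 with IL-15, 5.88 to 9.54 at rest and at most 1.39 on splenocyte chips. For the Actb control it was 1.28 to 1.49 with IL-15, 2.27 to 6.51 at rest and 1.34 to 1.59 on splenocyte chips.

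How Ly49 transcripts stand after activation is the question of the first comparison, of IL-15 NK against resting NK cells. Signals of Klra8 and of the probe sets shared by Klra9 and Klra3 and by Klra22 and Klra1 were lower in IL-15 NK cells, by folds of 1.80 to 2.39. Klra5 and both probe sets of Klra7 did not pass, and none of the 6 probe sets tested was higher. The 3 lower probe sets compare with a background in which 24.8% of 25731 probe sets passed, 11% higher and 13.8% lower. The median log2 difference was -0.60 over the 6 Ly49 probe sets and -0.15 over all tested. Klra2 and the own probe set of Klra1 were below the filter here. Where groups are said not to overlap, the share of all probe sets without overlap is not given, so this only describes the arrays. With 3 arrays against 3, an exact permutation p cannot go under 0.1 even without overlap.

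**Figure D1:**
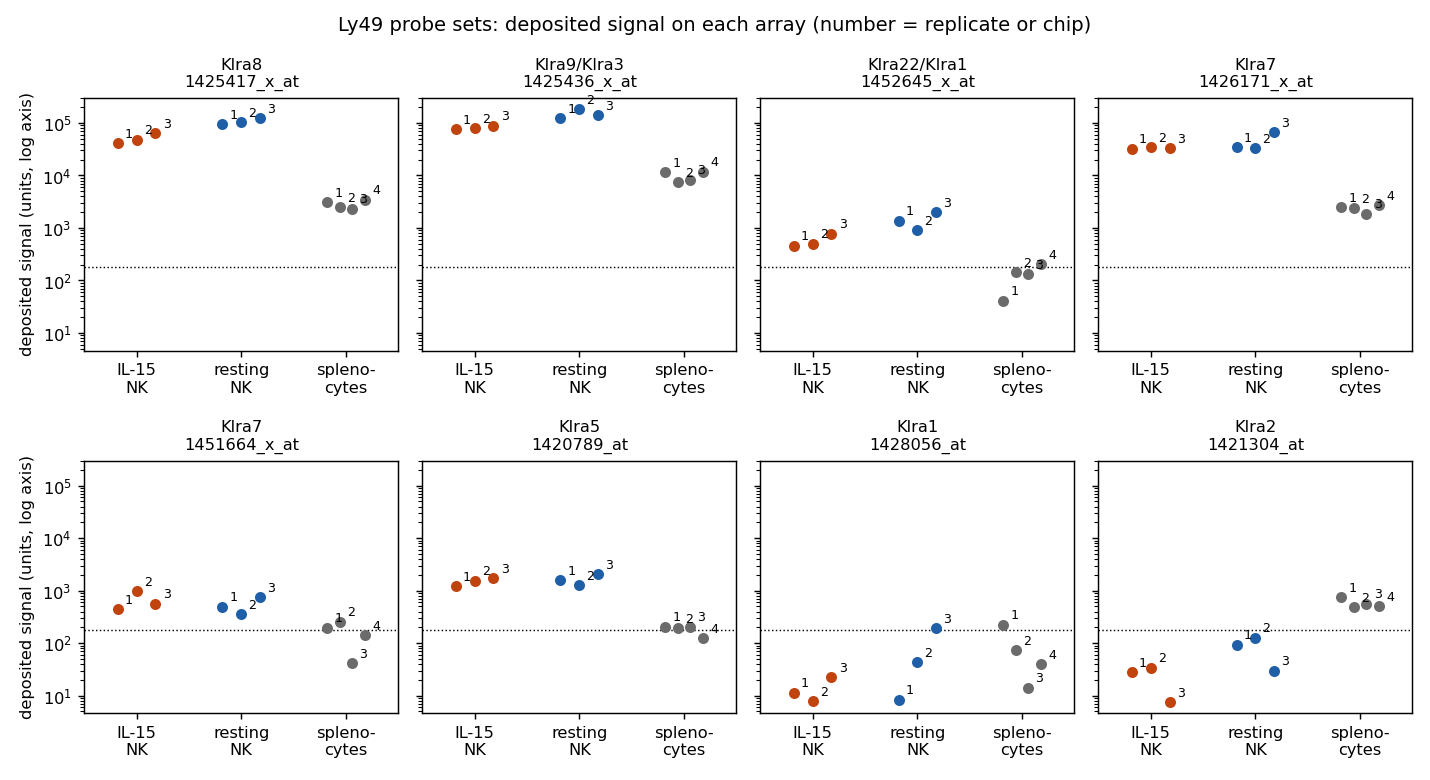
Deposited signal of each of the 8 Ly49 probe sets (log axis, units) on every array of IL-15 NK cells, resting NK cells and splenocytes; each point is an array, the number beside it its replicate or chip, and the dotted line the floor of 179.6 units. Klra8, Klra9/Klra3 and Klra22/Klra1 lie lower on all IL-15 NK arrays than on any resting NK array, and Klra2 lies above the floor only in splenocytes. The share of all probe sets that lie apart in this way is not given.

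Klra8, the activating receptor Ly49H, had 40889, 48356 and 63279 signal units in IL-15 NK replicates 1, 2 and 3, against 94467, 103384 and 124127 units in resting NK replicates 1, 2 and 3. The groups did not overlap, and the lowest resting array exceeded the highest IL-15 array. Its mean log2 signal was 15.61 ± 0.32 in IL-15 NK and 16.70 ± 0.20 in resting NK cells (SD, n = 3 each), a 2.13-fold lower level after IL-15 (log2 difference -1.09 ± 0.22 SE, limma adjusted p = 0.0055). With every probe set tested, dim ones included, Klra8 no longer passed (limma adjusted p = 0.079). Its signals were 26.6% to 43.1% of the array's largest signal with IL-15 and 38.2% to 69.9% at rest. Whether signals this high were compressed was not tested.

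Among inhibitory members, Klra9 and Klra3 encode Ly49I and Ly49C, receptors with closely related extracellular parts. Their shared probe set had 75658, 79836 and 88061 units in IL-15 NK replicates 1, 2 and 3, against 123903, 181314 and 139098 units in resting NK replicates 1, 2 and 3. Every resting array was higher than every IL-15 array. The mean log2 signals of 16.31 ± 0.11 and 17.16 ± 0.28 (SD, n = 3 each), in IL-15 NK and resting NK cells, differ by -0.85 ± 0.21 (SE), a 1.80-fold lower level (limma adjusted p = 0.015). How much of it belongs to either gene cannot be told apart. These signals were 49.2% to 62.3% of the array's largest signal with IL-15 and 67.1% to 78.4% at rest, and whether signals this high were compressed was not tested. The call was lost after quantile normalization, where the difference was -0.49 (limma adjusted p = 0.063), without IL-15 NK replicate 1 (limma adjusted p = 0.064) and with dim probe sets included (0.18).

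Klra1 encodes Ly49A, an inhibitory receptor for MHC class I that was described early in this family. The probe set shared by Klra22 and Klra1 had 463.3, 505.2 and 778.6 units in IL-15 NK replicates 1, 2 and 3, against 1382.7, 908.9 and 1988.5 units in resting NK replicates 1, 2 and 3. The groups did not overlap, although IL-15 NK replicate 3 came near resting NK replicate 2. The log2 difference was -1.26 ± 0.36 (SE, n = 3 each), 2.39-fold lower in IL-15 NK cells (limma adjusted p = 0.026). It no longer passed without resting NK replicate 1 (limma adjusted p = 0.064), resting NK replicate 3 (0.072), IL-15 NK replicate 1 (0.087) or IL-15 NK replicate 2 (0.073), nor with dim probe sets included (0.15). The own probe set of Klra1 was too dim to be compared. That set lay at 7.9 to 22.2 units in IL-15 NK and 8.3 to 192.4 units in resting NK cells, above the floor on 0 of 3 and 1 of 3 arrays.

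Klra7 encodes the inhibitory receptor Ly49G. Its brighter probe set had 32180, 34375 and 33174 units in IL-15 NK replicates 1, 2 and 3, against 34498, 33150 and 67376 units in resting NK replicates 1, 2 and 3. Resting NK replicate 3 stood apart from the other arrays, which lay close together. The log2 difference was -0.36, with a 95% interval from -0.94 to 0.23 (limma adjusted p = 0.36). Without resting NK replicate 3 it was -0.03, so the size of the difference rests on that array. The dimmer probe set had a difference of the opposite sign, 0.29 with an interval from -0.57 to 1.16 (limma adjusted p = 0.63), so the probe sets of Klra7 did not settle a direction.

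Klra5 encodes Ly49E, an inhibitory member that in mice is best known from fetal NK cells. It had 1204.3, 1560.1 and 1709.3 units in IL-15 NK replicates 1, 2 and 3, against 1574.6, 1255.2 and 2076.6 units in resting NK replicates 1, 2 and 3. The groups overlapped, and the log2 difference of -0.12 had an interval from -0.72 to 0.49 (limma adjusted p = 0.79). Klra5 is close to Klra9 and Klra3 in the upstream stretches printed above, with 56 of 60 matching bases. The ratio of Klra5 to their shared set on the same array was higher in IL-15 NK cells by 0.73 (log2) without overlap (exact permutation p = 0.10, 2-sided, adjusted 0.21). Pairs without Klra5 also lay apart, among them the brighter Klra7 set over the Klra22 and Klra1 set (0.90). Another was Klra8 over the dimmer Klra7 set (-1.38). Klra5 over either Klra7 set overlapped, so this ratio does not set Klra5 apart.

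**Figure D2:**
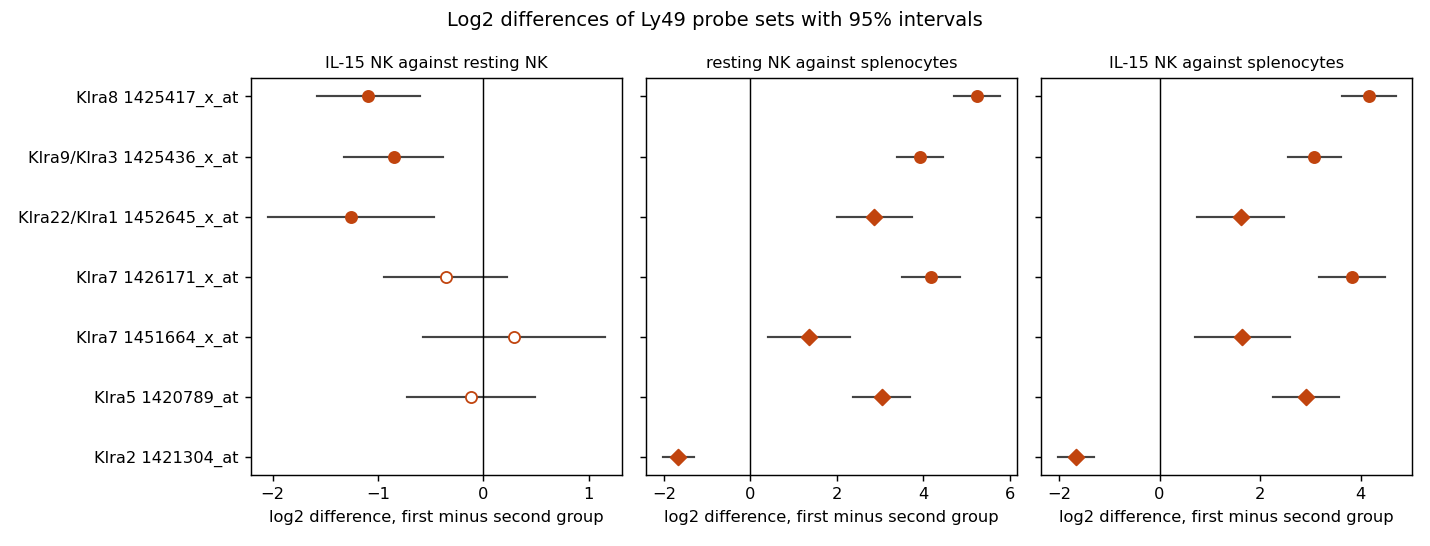
Log2 difference (x axis) of each tested Ly49 probe set in the comparisons of IL-15 NK with resting NK, resting NK with splenocytes and IL-15 NK with splenocytes, with 95% intervals from limma. Filled symbols passed at an adjusted p under 0.05 and diamonds are bounds because a group had arrays at the floor; the 3 lower probe sets after IL-15 are Klra8, Klra9/Klra3 and Klra22/Klra1.

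Signals of 2 probe sets on the same array form a ratio that array scaling does not change. The ratio depends on how each probe set binds, so only its change between groups was read. Klra8 over the brighter Klra7 probe set was 1.27, 1.41 and 1.91 in IL-15 NK replicates 1, 2 and 3, against 2.74, 3.12 and 1.84 in resting NK replicates 1, 2 and 3. The groups overlapped through resting NK replicate 3 (exact permutation p = 0.20, 2-sided). Klra5 over Klra8, in log2, was higher by 0.97 in IL-15 NK cells and did not overlap between the groups (exact permutation p = 0.10, 2-sided, the smallest that 3 arrays against 3 allow). Over the 15 pairs of probe sets the lowest Benjamini-Hochberg adjusted p was 0.21, and pairs were compared after the data were seen. No pair could have passed at 0.05 in this design, so whether Klra8 moved differently from Klra5 or Klra7 was not settled.

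**Figure D3:**
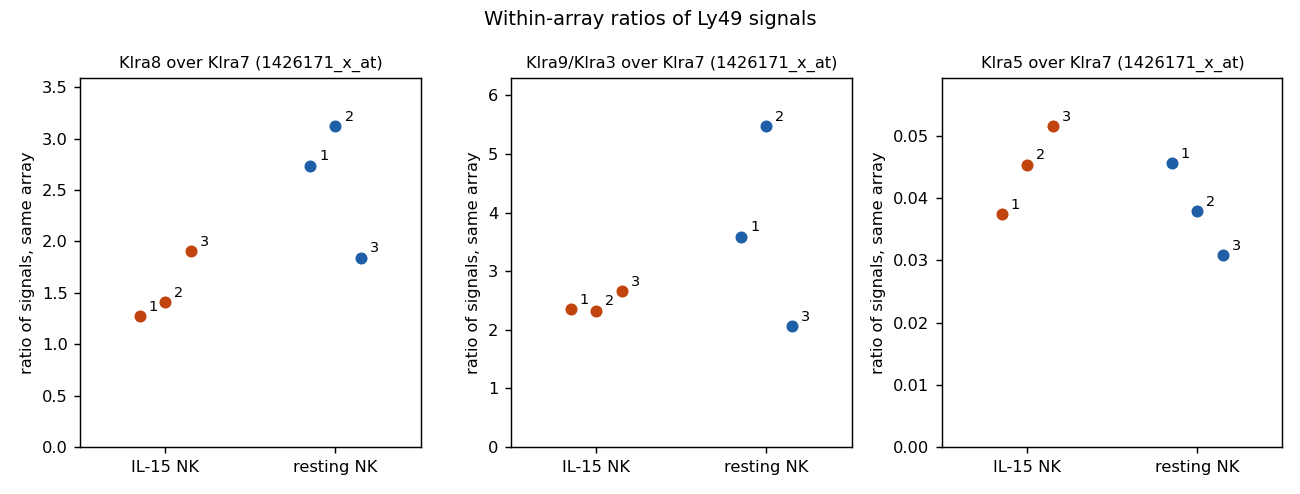
Ratio of the signals of Klra8, Klra9/Klra3 and Klra5 to that of the brighter Klra7 probe set on the same array (y axes, from 0), for the 3 IL-15 NK and the 3 resting NK arrays, with replicate numbers beside the points. The Klra8 ratio lies at 1.27 to 1.91 in IL-15 NK and 1.84 to 3.12 in resting NK cells, and resting NK replicate 3 lies among the IL-15 NK arrays.

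Resting NK replicate 3 had the highest resting signal for Klra8, Klra5, both Klra7 probe sets and the Klra22 and Klra1 set. Among resting arrays, the B cell and T cell markers were lowest on it. The median T cell share was 2.13% there, against 3.62% and 6.57% on resting NK replicates 1 and 2. On the same array the median shares of the splenocyte level were the highest among resting arrays for macrophage markers (5.83%) and neutrophil markers (3.93%). For plasmacytoid dendritic cell markers the median share was also highest (21.5%), but only 1 of 4 lay above the floor on it. Their summed signal was 756.4 units there, against 875.2 units on resting NK replicate 2. Against this single resting array, a setting chosen after seeing the data, the log2 difference was -1.31 for Klra8 and -0.78 for the shared set of Klra9 and Klra3. It was -1.81 for the Klra22 and Klra1 set, -1.02 for the brighter and -0.27 for the dimmer Klra7 set, and -0.49 for Klra5. No p is given for these values, since 1 array has no spread of its own. The macrophage markers were higher on all resting NK than on all IL-15 NK arrays, as were the Gapdh and Actb ratios. The part of these markers and of the ratios in the Ly49 differences was not tested.

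**Figure D4:**
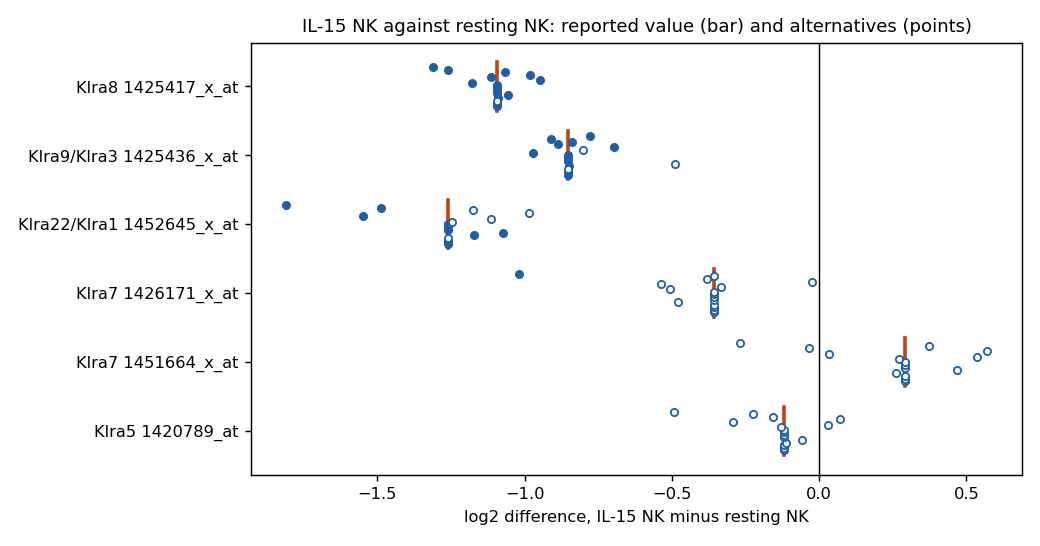
Log2 difference, IL-15 NK minus resting NK (x axis), of the 6 tested Ly49 probe sets, with the reported value as a bar and 1 point per alternative setting, filled where it passed at an adjusted p under 0.05. Klra8 stays between -1.31 and -0.95, while the brighter Klra7 set runs from -1.02, with replicate 3 as the single resting array, to -0.03 without it. Where 1 resting array remains, its spread is assumed to be that of the IL-15 NK arrays, so the filling of those points is not read as a call.

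Comparing resting NK cells with splenocytes asks how far Ly49 transcripts mark the sorted cells. Of the 7 probe sets tested, 6 were higher in resting NK cells and 1, Klra2, was lower, against a background of 36.9% of 29468 probe sets called, 15.5% higher and 21.4% lower. Klra2 met the filter only through the splenocyte chips. The Klra22 and Klra1 set and the dimmer Klra7 set met it only with the NK arrays. The filter thus favoured the directions of these probe sets in advance, and the count of 7 calls is not free of it. Klra8, the shared set of Klra9 and Klra3, the brighter Klra7 set and Klra5 exceeded the floor on 3 or more arrays of each group. Each of them was higher in resting NK cells. The Ly49 median log2 difference was 3.04, beside -0.06 over all probe sets. In a bulk sample, fewer NK cells and less of a transcript per NK cell cannot be told apart. The Gapdh ratio given above also separated the splenocyte chips from both NK groups, while the Actb ratio separated them from resting NK cells only. The part of these ratios in the differences was not tested. Klra8 had 3112, 2467, 2310 and 3448 units on splenocyte chips 1 to 4 and was 38.1-fold higher in resting NK cells (log2 difference 5.25 ± 0.23 SE, limma adjusted p = 4.5e-06). The shared set of Klra9 and Klra3 had 11582, 7407, 8280 and 11872 units on the chips and was 15.3-fold higher in resting NK cells. The brighter Klra7 set had 2507, 2363, 1866 and 2728 units on the chips and was 18.2-fold higher. All NK arrays lay well above all chips for these 3 probe sets.

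Other members were near the floor in splenocytes, so their folds are bounds. Klra5 was at least 8.20-fold higher in resting NK cells, with 3 of 4 chips above the floor (limma adjusted p = 0.00012). The set shared by Klra22 and Klra1 was at least 7.31-fold higher, with 1 of 4 chips above the floor (limma adjusted p = 0.00063). The dimmer Klra7 set was at least 2.56-fold higher, with 2 of 4 chips above the floor (limma adjusted p = 0.032), and lost its call without resting NK replicate 1 (0.059) or 3 (0.078), with a floor at the 50th percentile (0.12), with dim probe sets included (0.11) and with the chips averaged into 1 sample (0.17). For the Klra22 and Klra1 set and the dimmer Klra7 set, the chips alone would not have met the filter. They were tested because of the NK arrays, where they are high, so the filter favoured calls in this direction. The own probe set of Klra1 lay at 14.3 to 226 units in splenocytes and passed the filter in no comparison.

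Klra2 ran the other way. It encodes Ly49B, a member found in mouse on myeloid cells more than on NK cells. Its signals were 28.2, 33.8 and 7.6 units in IL-15 NK replicates 1, 2 and 3, 93.5, 127.1 and 29.9 units in resting NK replicates 1, 2 and 3, and 759.7, 482.2, 560.2 and 511.6 units on splenocyte chips 1 to 4. All 6 NK arrays were under the floor and all 4 chips above it. It was at least 3.17-fold lower in resting NK cells than in splenocytes, and likewise in IL-15 NK cells. Klra2 met the filter only through the splenocyte chips, and the floor made all NK arrays equal. It could therefore only come out lower, and no p is given. Most markers of other spleen cells were lower in resting NK cells than in splenocytes too, beside 21.4% of all probe sets and 2781 of 12948 with 1 probe set per gene. This held for 12 of 12 macrophage and monocyte, 11 of 11 B cell, 6 of 6 neutrophil, 4 of 4 plasmacytoid dendritic cell and 8 of 10 T cell markers, with median log2 differences of -3.91, -4.37, -5.63, -2.20 and -3.69 in that order. All these markers exceeded the floor on all 4 chips. On single resting NK arrays 8 to 9 macrophage, 5 to 11 B cell and 2 to 5 neutrophil markers did. For plasmacytoid dendritic cell and T cell markers it was 1 to 2 and 4 to 8. Markers that resting NK arrays alone would not have passed were tested because of the chips. Their lower direction was favoured in advance, so these counts are not a free test. Klra17, itself a Ly49 gene, is 1 of the 4 plasmacytoid dendritic cell markers.

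Comparing IL-15 NK cells with splenocytes asks what remained of this difference after activation. The same 7 probe sets were tested, and again 6 were higher and Klra2 was lower, against 40.7% of 28250 probe sets called, 16% higher and 24.7% lower. As in the comparison above, the filter favoured the directions of Klra2, the Klra22 and Klra1 set and the dimmer Klra7 set. After quantile normalization the balance over all probe sets was 5827 higher and 5159 lower, beside 4509 and 6990, while the Ly49 directions held. Klra8 was 17.9-fold, the shared set of Klra9 and Klra3 8.46-fold and the brighter Klra7 set 14.2-fold higher in IL-15 NK cells than in splenocytes (limma adjusted p = 8.4e-06, 2.9e-05 and 3.6e-05). Klra5 was at least 7.56-fold, the dimmer Klra7 set at least 3.13-fold and the set of Klra22 and Klra1 at least 3.05-fold higher. The set of Klra22 and Klra1 lost its call with all 4 chips averaged into 1 sample (limma adjusted p = 0.082) and with a floor at the 50th percentile (0.052), and the dimmer Klra7 set lost its own with the chips averaged (0.10) and with dim probe sets included (0.062). Both comparisons share the splenocyte arrays. The order of levels was thus splenocytes, IL-15 NK and resting NK, from low to high, for Klra8, the Klra9 and Klra3 set and the Klra22 and Klra1 set. For Klra5 and Klra7 the NK groups did not differ beyond their spread.

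Ly49 receptors signal through a small set of adaptors, kinases and phosphatases and bind MHC class I molecules. Of 17 such genes tested in IL-15 NK against resting NK cells, 2 rose, 3 fell and 12 did not pass, with a median log2 difference of -0.38. Each gene of this and the following lists was read through its brightest probe set alone. Over all probe sets 11% were higher and 13.8% lower. With 1 probe set per gene, 1619 of 11440 were higher and 1384 lower, so these counts lie near the background. Ptpn6, the SHP-1 phosphatase that inhibitory members recruit, rose by 1.01 (limma adjusted p = 0.023), and Lat2, an adaptor of the LAT family, by 1.18. Syk, a kinase downstream of DAP12, fell to a mean log2 signal of 12.41 in IL-15 NK cells, against 13.91 in resting NK cells (limma adjusted p = 0.0005). Hcst, the adaptor DAP10, fell by 1.12, and Fyn, a kinase of the Src family, fell by 0.69. Tyrobp, DAP12 itself, had a difference of -0.59 that missed the threshold (limma adjusted p = 0.17). Differences of the MHC class I genes H2-K1 (-0.38), H2-D1 (-0.52) and B2m, the light chain (0.05), missed it too (limma adjusted p = 0.19, 0.093 and 0.87). Fyn, Tyrobp and the MHC class I genes are named here after their values were seen.

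Of 9 transcription factor genes linked to Ly49 or NK receptor expression, none rose, 4 fell and 5 did not pass, with a median of -0.43. Over all probe sets 11% were higher and 13.8% lower, with a median of -0.15. With 1 probe set per gene, 1619 of 11440 were higher and 1384 lower. Tbx21 (T-bet) fell by 1.19, Tox by 1.17, Runx1 by 0.91 and Ets1 by 0.65 on the log2 scale. Of 13 other genes of lectin-like receptors, none rose, 3 fell and 10 did not pass, with a median of -0.53. This share called is near the 24.8% over all probe sets and the 3003 of 11440 with 1 probe set per gene. Klrg1, an inhibitory receptor of mature NK cells, fell by 2.36 (limma adjusted p = 0.00011), Klrb1a by 1.04 and Klre1 by 0.62. Klrd1 (CD94), the partner of the NKG2 receptors, and Klrk1 (NKG2D), both named after their values were seen, had differences of -0.53 and -0.37 that missed the threshold (limma adjusted p = 0.071 and 0.35). Of the 11 genes named from these lists as the largest calls, 8 lost their call with every probe set tested, and 6 lost it without 1 of the NK arrays. Syk, Tbx21 and Klrg1 kept theirs under both.

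The genes most like the mean profile of 4 Ly49 probe sets, those of Klra8, Klra5 and Klra7, were looked up among 11437 genes outside the family. These 4 name 1 member each and passed the filter in IL-15 NK against resting NK, so Klra2, which runs the other way in splenocytes, was not in the profile. Over the 10 arrays these were Sema4a, Nrarp, Ptger4, Osbpl3 and Pbx3, with Pearson correlations of 0.994 to 0.995, and over the 6 NK arrays Asap1, Unc5a, 1810013L24Rik, Ankrd23 and Ppp4r3b, with 0.969 to 0.995. The arrays share the splenocyte contrast and the scaling, and none of the 10 passed in IL-15 NK against resting NK (limma adjusted p of 0.079 to 0.82). How high the top correlations among 11437 genes run without any link was not tested. Asap1 had a mean log2 signal of 11.36 in splenocytes, above 10.61 in resting NK cells, unlike the 4 Ly49 probe sets. Unc5a lay near the log2 floor of 7.49, with group means of 7.91 to 8.36. 1810013L24Rik and Ppp4r3b were higher in both NK groups than in splenocytes.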

How the data were processed

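The 10 arrays were 3 of IL-15 NK cells, 3 of resting NK cells and 4 of splenocytes. For each array the authors deposited linear intensities of probe sets. Per the submitters' processing notes the software was GCOS 1.4; its algorithm and target for scaling were not given in the sources used here. No further scaling was applied, so levels are relative within an array. The floor was the median over arrays of each array's 40th percentile, and 64 control probe sets were left out. Gene symbols came from GEO's platform table, sequences from RefSeq. Log2 values computed from the deposited intensities were fitted with limma 3.58.1 in R 4.3.3 (lmFit, eBayes with an intensity trend, 2-sided, adjusted over all probe sets tested). The comparison of the NK groups used their 6 arrays alone. Comparisons with splenocytes used all groups; the chips were averaged in pairs under each of 3 possible pairings and the largest p was kept. The number of arrays limits the precision. The labels say no more of the replicates than that they are biological, and the design text speaks of pairs without naming them. The p-values are from fits without pairs and measure the spread between these arrays. Fits were tested on simulated data. Folds against arrays at the floor are lower bounds. The text names every Ly49 probe set, up to 4 passing genes with the largest differences per gene list, and the 5 genes most correlated with the Ly49 profile over the NK arrays and over all arrays; genes outside this rule are marked. The members and lists were chosen with earlier results of these data known.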

Additional observations from a re-analysis of the deposited data

Results flagged for a closer look

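On the splenocyte chips, after signals under the floor were raised to it, 2 of 8 Ly49 probe sets had a single chip above the floor. For the own probe set of Klra1 the gap to the nearest chip, as a share of the group's range, was 1, since chip 1 was at 226 units and the other three were at the floor. For the set shared by Klra22 and Klra1 it was also 1, with chip 4 at 205.5 units and the other three at the floor. The value of 1 follows from the floor, which makes the other three equal, so the rate of about 1 group in 20 that chance gives does not apply. Before the floor, the chips of the set shared by Klra22 and Klra1 had 41.5, 142.6, 130.3 and 205.5 units, and chip 4 was not far from the others.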

How the results depend on the processing

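In all, 3 Ly49 probe sets passed in IL-15 NK against resting NK, among 6374 of all probe sets. With every probe set tested the counts were 0 (limma, 3 at an unadjusted p under 0.05) and 2915, and with 1 probe set per gene, where the shared sets drop out, 1 and 3003. Leaving out each NK array gave 1 to 3 and 4101 to 6699, the lowest both without IL-15 NK replicate 1, and 4126 without IL-15 NK replicate 3. With resting NK replicates 1 and 2 left out, chosen after seeing the data, they were 4 and 4698, where the lone resting array is assumed to vary like the IL-15 NK arrays. For resting NK against splenocytes the counts were 7 and 10888, with 1 probe set per gene 4 and 4993, with the chips as 1 sample 6 and 7037, and without single arrays 6 to 7 and 9489 to 10971. For IL-15 NK against splenocytes they were 7 and 11499, with 1 probe set per gene 4 and 5522, and without single arrays 7 throughout and 9356 to 11063. In both comparisons with splenocytes the filter favoured the directions of Klra2, the Klra22 and Klra1 set and the dimmer Klra7 set. Quantile normalization moved the median of all probe sets by 0.12, 0.13 and 0.26 in the 3 comparisons; the Klra8 difference after IL-15 was then -1.06 against a median of -0.02. The design text speaks of pairs without saying which arrays form them, and the main fits did not take the replicate numbers as pairs. Same-numbered IL-15 NK and resting NK arrays correlated by 0.07, 0.24 and 0.04 in their deviations, not every array best with its own number. With 3 arrays per group this cannot decide whether the numbers are pairs. With the replicate block, which takes them as pairs, 3 Ly49 and 7161 of all probe sets passed. The causes were not tested.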

Other observations

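Klra17, which encodes Ly49Q, a member known in mouse from plasmacytoid dendritic cells, was, like Klra2, higher in splenocytes than in both NK groups. Its signals were 116.6 to 226.1 units in IL-15 NK cells and 77.1 to 165.2 units in resting NK cells, against 592.8 to 1049.3 units in splenocytes. Its log2 difference from splenocytes was -2.22 in resting NK and -2.10 in IL-15 NK cells, both bounds because NK arrays lay at the floor. Klra17 met the filter only because of the splenocyte chips, so its direction was favoured in advance and no p is given. It is also 1 of the plasmacytoid dendritic cell markers counted above. The probe sets of Klra16 exceeded the floor on 1 of 10 arrays, a resting NK array at 287.4 units.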
